A study of Mus musculus with 8 samples.

Results

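Tlx2, Ceacam16 and Sult1c2 were 3 of the 19751 genes with a probe on a microarray of the aging mouse hippocampus, and each was read by 1 of 39429 probes. They were chosen by symbol, and they were chosen because their signal was much higher in old than in young animals. The difference between the ages is therefore given below as a description without a test. The samples were full hippocampi dissected by hand from untreated wild-type C57BL/6J mice, which had aged in their home cages. There were 4 samples from mice aged 3 months (3M) and 4 from mice aged 29 months (29M). Each sample was hybridised to 1 array, and the 8 arrays lay on 3 slides, each of which carried both ages. Nothing in the labels said that the 4 samples of an age came from separate animals, so the spread given here is that between samples.

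The 3 genes are unrelated in sequence family and in their known roles. Tlx2 encodes a homeobox transcription factor of neural crest derivatives that is needed for normal innervation of the gut and that also responds to bone morphogenetic protein (BMP) signalling in the embryo. TLX proteins bind DNA together with homeodomain partners of the TALE class, the PBX and MEIS proteins. Ceacam16 encodes a secreted member of the carcinoembryonic antigen family that is built into the tectorial membrane of the cochlea, the gel that lies over the sensory hair cells. Sult1c2 encodes a cytosolic sulfotransferase, an enzyme that moves a sulfate group from the donor PAPS onto small molecules with a hydroxyl group. None of them is a textbook marker of a hippocampal cell type.

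Between 76.2% and 85% of spots were well above background on an array, no spot was saturated, and arrays correlated with each other at r between 0.991 and 0.998. The deposited table of the whole series put 7 of its 8 columns under the name of another sample than the one whose array they came from, 4 of them under the other age, and its columns ran in the order of slide and array position. Here each array has the age of the sample under which its scanner output was deposited. The hippocampal label was checked on 9 genes of hippocampal excitatory neurons, all of which were well above background on every array. Of 12 genes of bordering tissue, 10 were also well above background on every array, and none was called as changed with age (limma, against 2 higher and 1 lower at an unadjusted p under 0.05). Over all genes, 1.58% were called higher and 0.689% lower, and 9.44% and 7.65% were so at that unadjusted p. In a piece of whole tissue, fewer cells of a type and less RNA per cell cannot be told apart.

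Of the 3 genes, Sult1c2 matched an entry of the RefSeq promoter table used here, and Tlx2 and Ceacam16 did not. The sequence is shown to place motifs of general promoters and of the transcription factor families that the study searched for in promoters. The window runs from 250 bases before to 50 bases after the annotated start of the gene, on the minus strand of chr17:53845909-53846208 (GRCm38.p6). Capitals mark the motifs that were found.
Sult1c2: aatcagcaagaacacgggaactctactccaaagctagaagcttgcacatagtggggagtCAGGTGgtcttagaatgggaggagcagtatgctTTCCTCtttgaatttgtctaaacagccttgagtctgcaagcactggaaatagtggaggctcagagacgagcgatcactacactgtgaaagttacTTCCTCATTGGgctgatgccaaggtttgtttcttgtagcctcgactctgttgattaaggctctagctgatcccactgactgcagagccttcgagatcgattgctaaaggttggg
Of 12 motifs searched on both strands, 3 were present. The E box CANNTG began at position -191 from the start of the gene and is held by 72.3% of the 32851 windows of the table. The SPI letters GAGGAA occurred in reverse at -158 and at -64 and are held by 28.3% of windows. The CCAAT box occurred in reverse at -58, directly beside the second SPI match, and is held by 37.4% of windows. No match was found for TATAAA (in 13.6% of windows), GGGCGG (35.7%), the STAT letters TTCNNNGAA (8.3%), the IRF letters GAAANNGAA (8.56%), the NF-kappaB letters GGANTTTCC (1.25%), the AP-1 letters TGANTCA (7.81%), GATAAG (7.44%), the homeodomain letters TAATTA (5.29%) or the SMAD palindrome GTCTAGAC (0.213%). A match is a stretch of letters and not a measured site.

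Levels are normalized log2 intensities, on which 1 unit is about a doubling for bright probes and changes of dim probes are understated. They are compared only within a probe because probes differ in how strongly they bind their target. The Tlx2 probe read 6.59, 6.00, 5.64 and 6.68 in 3M replicates 1 to 4. It read 9.89, 8.66, 9.71 and 9.81 in 29M replicates 1 to 4. The lowest old sample lay 1.98 above the highest young sample. The 3M mean was 6.23 ± 0.49 (SD, n = 4) and the 29M mean was 9.52 ± 0.57 (SD, n = 4), a difference of 3.29 or 9.77-fold on this scale. With the signal scaled to the 75th percentile instead, the Tlx2 difference was 4.13, so its fold depends on the scale. Tlx2 was close to the detection limit in the young tissue, since 3 of 4 young samples were well above background and 3M replicate 3 was not. All 4 old samples were well above background, with raw spot intensities of 12.04 to 35.83 times the local background, against 2.033 to 4.16 times in the young samples.

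Ceacam16 was detected at both ages, and its probe was well above background on all 8 arrays. In 3M replicates 1 to 4 it read 7.82, 7.62, 6.24 and 8.18. In 29M replicates 1 to 4 it read 11.16, 9.91, 10.83 and 10.73. The groups lay 1.74 apart at their nearest samples, although the young samples themselves spread widely and 3M replicate 3 lay far below the others. The means were 7.46 ± 0.85 in 3M and 10.66 ± 0.53 in 29M (SD, n = 4), a difference of 3.20 or 9.16-fold. The processed signal, which is the scanner intensity after background subtraction, ranged 6.02-fold from the lowest to the highest young sample and 2.22-fold among the old samples.

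Sult1c2 had the smallest difference of the 3 genes and was well above background on all 8 arrays. Its probe read 9.33, 9.82, 8.66 and 9.995 in 3M replicates 1 to 4. In 29M replicates 1 to 4 it read 11.10, 10.71, 11.13 and 11.47. The nearest samples of both ages lay 0.72 apart, which is less than the 1.98 of Tlx2 and the 1.74 of Ceacam16. The means were 9.45 ± 0.60 in 3M and 11.10 ± 0.31 in 29M (SD, n = 4), a difference of 1.65 or 3.14-fold.

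**Figure D1:**
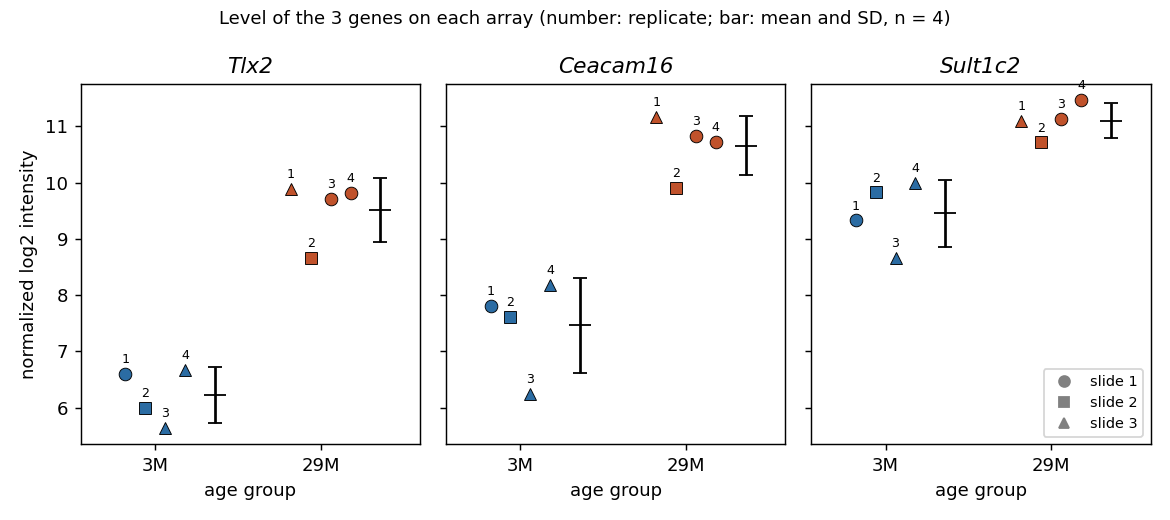
Normalized log2 intensity (vertical axis) of Tlx2, Ceacam16 and Sult1c2 on each of the 8 arrays by age group, with the replicate number above each point, the marker shape giving the slide, and a bar for the mean and SD of the 4 samples. All old samples lie above all young samples in each gene, 3M replicate 3 is the lowest young sample and 29M replicate 2 the lowest old sample in each.

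All 3 probes had every old sample above every young sample, as had 5.52% of the 39408 probes tested (5.54% had every old sample below), and all 3 would be called higher in 29M by limma (adjusted p under 0.1 and a log2 change of at least 0.5), as were 1.25% of probes (0.809% were called lower). These counts were fixed by the way the genes were chosen. Among the 19742 genes tested, Tlx2 had the largest positive difference, Ceacam16 the second largest, and Sult1c2 stood at rank 18. Tlx2 and Ceacam16 changed places with normexp and quantile normalization (2.73 and 2.94) and within slide 3 (3.73 and 3.95). They also did so without 3M replicate 2 (3.24 and 3.26) and, barely, without 3M replicate 4 (3.427 and 3.428). The young mean of Tlx2 includes 1 array that was not well above background. Directly below Ceacam16 came Klk6, a secreted serine protease, with 3.08. The fitted difference next above that of Sult1c2 was that of Cdkn2a, which encodes cell cycle inhibitors. Cdkn2a was not well above background on any of the 4 young arrays, so its change has only a bound, at least 2.87-fold or 1.52 on the log2 scale (limma adjusted p = 0.00194), and the order of the pair is not settled. Directly below Sult1c2 stood Gsc, a homeobox gene, with 1.56, and it was well above background on 1 of 4 young and on all 4 old arrays.

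The order of samples within an age was shared in part by the 3 genes. In the young group 3M replicate 3 was the lowest and 3M replicate 4 the highest for all 3. In the old group 29M replicate 2 was the lowest for all 3, while the highest was 29M replicate 1 for Tlx2 and Ceacam16 and 29M replicate 4 for Sult1c2. Without 3M replicate 3 the difference was 3.07 for Tlx2, 2.78 for Ceacam16 and 1.39 for Sult1c2. Without 29M replicate 2 it was 3.59, 3.45 and 1.78 in the same order. For Tlx2 and Ceacam16 every one of these values was above the 1.65 of Sult1c2.

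Markers of the lining of the brain ventricles were lowest in 3M replicate 3 as well. A score was taken as the mean, over the markers of a list, of each gene's log2 level on an array minus its mean over the 8 arrays. The choroid plexus score of 13 markers was -0.87 in 3M replicate 3 and -0.10, 0.40 and 0.40 in 3M replicates 1, 2 and 4. In the old group it was -0.22 in 29M replicate 2 and 0.19, 0.16 and 0.07 in 29M replicates 1, 3 and 4. The score of 8 ependymal markers was -0.92 in 3M replicate 3, 0.18 to 0.60 in the other young samples and -0.16, -0.15, 0.09 and 0.06 in 29M replicates 1 to 4. In the old group it was thus lowest in replicate 1, the highest old sample for Tlx2 and Ceacam16. All of these markers were well above background on every array, among them Ttr, which encodes transthyretin, and Foxj1, the master regulator of motile cilia. None of the 13 and none of the 8 was called with age, and none had an unadjusted p under 0.05 (limma). Over all genes, 1.58% were called higher and 0.689% lower, and 9.44% and 7.65% were so at that unadjusted p. The SE of these markers reached 0.41 (Ccdc153), so a missing call does not show a stable level.

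Once the mean of each age had been taken off, Sult1c2 followed the choroid plexus score at r = 0.93, Ceacam16 at r = 0.89 and Tlx2 at r = 0.61 over the 8 arrays. The corresponding values for the ependymal score were 0.90, 0.84 and 0.59. These are descriptions over 8 points that are not free to vary after 2 means were removed, and 3M replicate 3 lies far out in both measures. Tlx2 was nearer to the score of the 12 bordering-tissue genes (r = 0.89), whose whole range was only -0.11 to 0.05 in 3M and -0.11 to 0.15 in 29M. With the choroid plexus score as a covariate, a fit added after the data had been seen, the difference between the ages was 3.22 for Tlx2, 3.07 for Ceacam16 and 1.56 for Sult1c2, against 3.29, 3.20 and 1.65 without it. The mean score differed little between the ages, at -0.04 in 3M and 0.05 in 29M, which limits how far this fit could move the differences. That closeness of the means rested on 3M replicate 3, at -0.87, since the other young samples stood at -0.10, 0.40 and 0.40. The part of the choroid plexus in the differences of the 3 genes was not tested.

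**Figure D2:**
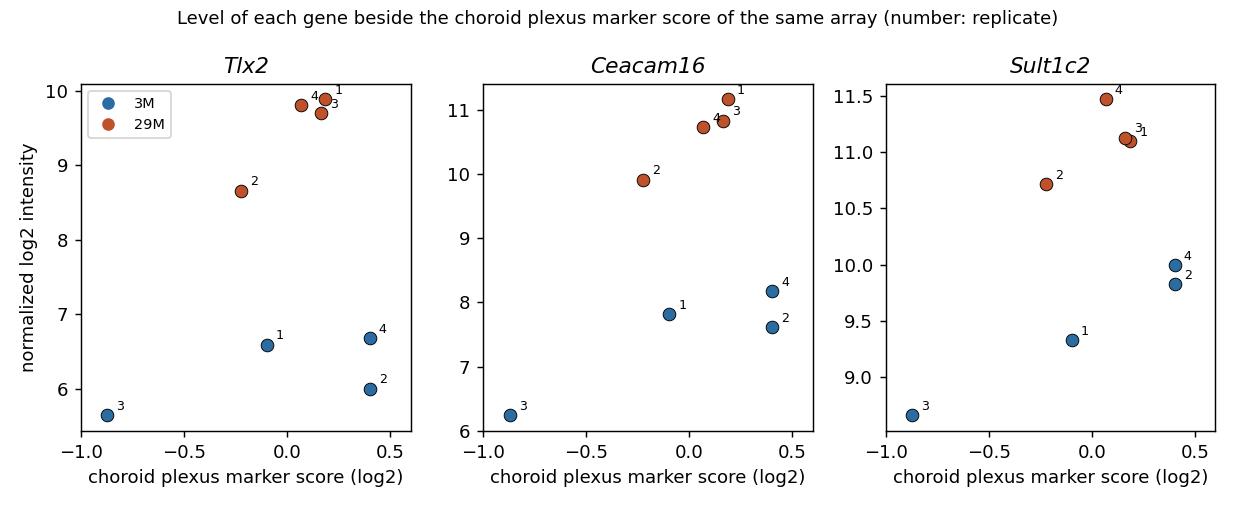
Normalized log2 intensity of each gene (vertical axis) against the choroid plexus marker score of the same array in log2 units (horizontal axis), with 3M in blue, 29M in orange and the replicate number beside each point. The ages overlap along the score but not in the level of the 3 genes, and 3M replicate 3, at a score of -0.87, has the lowest level in each panel.

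Markers of some other cell types differed with age, and their part in the differences of the 3 genes was not tested. Over all genes, 1.58% were called higher, and 9.44% were higher and 7.65% lower at an unadjusted p under 0.05. The score of 13 microglial genes ranged from -0.27 to -0.02 in 3M and from -0.02 to 0.26 in 29M, and 3 of them, C1qa, C1qb and Trem2, rose (limma). At an unadjusted p under 0.05, 8 of the 13 were higher and none lower. The score of 10 astrocyte genes ranged from -0.17 to -0.02 and from 0.03 to 0.15, with Gfap called higher, and that of 8 endothelial genes from -0.15 to -0.06 and from 0.01 to 0.18, with Vwf called higher. At an unadjusted p under 0.05 (limma), 2 astrocyte genes were higher and 1 lower, and 3 endothelial genes were higher and none lower. Of 11 T and B cell genes, Cd3d, Cd8a and Cd2 rose, with 3 higher and none lower at an unadjusted p under 0.05. Of 12 meningeal genes none was called (limma), with 4 higher and none lower at an unadjusted p under 0.05, a median change of 0.31 and scores of -0.24 to 0.02 in 3M and -0.35 to 0.57 in 29M. None of 10 neuronal, 9 oligodendrocyte, 6 red blood cell and 9 hippocampal excitatory neuron genes was called by its brightest probe. A dimmer probe of Ermn, an oligodendrocyte gene, rose by 0.76 (limma adjusted p = 0.0452). At an unadjusted p under 0.05, 1 oligodendrocyte gene was higher, and 1 red blood cell gene and 2 hippocampal excitatory neuron genes were lower.

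The 3 slides gave differences of unequal size. For Tlx2 the old minus the young level was 3.16 on slide 1, 2.66 on slide 2 and 3.73 on slide 3. For Ceacam16 the same differences were 2.96, 2.30 and 3.95. Slide 2, which held 1 sample of each age, gave the smallest value for each gene. For Sult1c2 it gave 0.89, against 1.97 on slide 1 and 1.77 on slide 3. The old samples exceeded the young ones on every slide for all 3 genes. With another background correction or scaling, Tlx2 ranged from 2.73 to 4.13, Ceacam16 from 2.94 to 3.65 and Sult1c2 from 1.57 to 1.67. The range was widest for Tlx2.

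**Figure D3:**
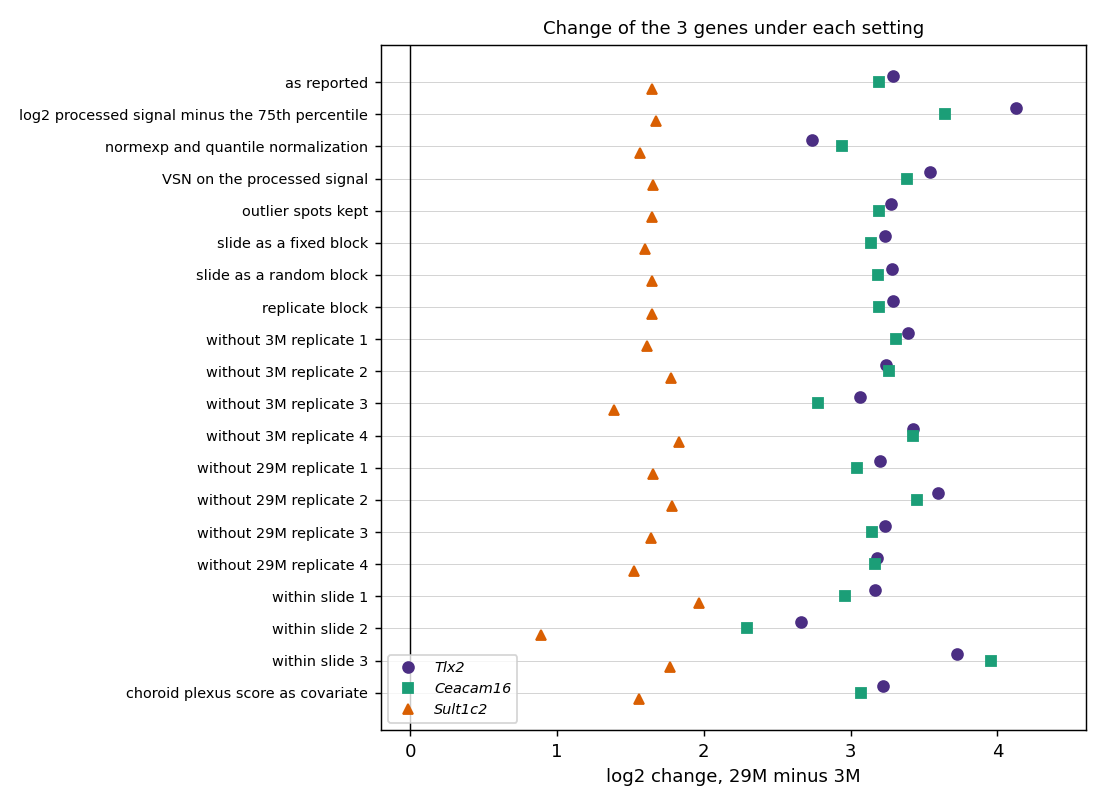
Difference between 29M and 3M in log2 units (horizontal axis) for Tlx2, Ceacam16 and Sult1c2 as reported and under each other setting (vertical axis). No setting brings a gene to 0, and the smallest values of the 3 genes, 2.66, 2.30 and 0.89, are those within slide 2.

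The likeness of single genes to the 3 was measured as Pearson's r of the normalized log2 levels over the 8 arrays, among 16450 other genes that were well above background on all arrays of an age. The 8 points fall into 2 age groups, so a high r mostly records that both genes differ with age. Nearest to Tlx2 were Tmem82 (0.99), Prom2 (0.99), Ceacam16 (0.98), Prss50 (0.98) and Fbxl8 (0.98). Prom2, a prominin of plasma membrane protrusions, differed by 1.78, while Tmem82 differed by only 0.47. Nearest to Ceacam16 were St14, S100a6, Tlx2, Lgals3bp and Kctd5, with r between 0.98 and 0.99. Of these, St14, which encodes the membrane serine protease matriptase, differed by 0.67, the calcium-binding S100a6 by 1.15 and the secreted glycoprotein Lgals3bp by 1.30. St14 was also nearest to Sult1c2, at 0.98, followed by Plekhb1, Tppp3, Galnt12 and Mta3. Counts of genes over an r of 0.9 were 252 for Tlx2, 262 for Ceacam16 and 219 for Sult1c2, so a high likeness was common.

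With age means removed, the nearest genes were others. For Tlx2 they were Proser3, Nkap, Prrg4, Thy1 and 2210417A02Rik, at r between 0.97 and 0.98, and none of them was called with age. For Ceacam16 they were Loxl4 (0.98), F9, Nid2, Haao and Bspry. Loxl4, a lysyl oxidase-like enzyme of the extracellular matrix, was also near to Ceacam16 over all 8 arrays (0.96) and differed with age by 0.61. For Sult1c2 they were Defb11, Tmprss11a, Csrp2, Wfdc2 and 1700019N19Rik, at r between 0.98 and 0.99. Among the 3 genes themselves, Tlx2 and Ceacam16 were nearest to each other, at r = 0.98 over all arrays and 0.89 with age means removed. Ceacam16 and Sult1c2 gave 0.97 and 0.83, and Tlx2 and Sult1c2 gave 0.94 and 0.67.

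Families and pathways of the 3 genes were examined next, since the choice of the genes did not use them. The lists themselves were drawn up with earlier results of these data known. Over 7 lists, 154 further genes were measured, of which 4 (2.6%) were called higher and 2 (1.3%) lower in 29M. Over all genes 1.58% were called higher and 0.689% lower. The median change of the 154 genes was 0.01, the same as that of all genes to 2 decimals. The called genes ran from -1.17 for Fst to 0.74 for Bmp7. Without 3M replicate 1 the balance of the calls turned, with 3 higher and 6 lower, and without 29M replicate 3 it was 2 higher and 3 lower. The counts at an unadjusted p under 0.05 given for each list below stand beside 9.44% higher and 7.65% lower over all genes.

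For Sult1c2, none of 17 other measured sulfotransferase genes was called (limma), with 2 higher and none lower at an unadjusted p under 0.05, and the median change was 0.04. Sult1c1, the closest relative in position and name, was not well above background on any young array and on only 1 old array. Most of its readings at both ages were thus not well above background, so no size or bound is given. It was not called (limma adjusted p = 0.126). Sult1a1, a phenol sulfotransferase, changed by 0.17 and Sult1e1, the estrogen sulfotransferase, by -0.38, both not called. The enzymes that make the sulfate donor were also not called, with Papss1 at 0.35 (SE 0.13, adjusted p = 0.207) and Papss2 at -0.25 (SE 0.12, adjusted p = 0.345). In the list of 24 genes of sulfate donor and sulfate handling no gene was called (limma), with 3 higher and 2 lower at an unadjusted p under 0.05. Its extremes were Arsg, a lysosomal sulfatase, at 0.57 and Slc26a1, a sulfate transporter, at -0.47.

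For Ceacam16, none of 25 measured Ceacam and Psg genes was called by the probe with the highest mean (limma), with 2 higher and 2 lower at an unadjusted p under 0.05, and only 10 of the 25 were well above background on all arrays of an age. The median change was -0.01, with Psg17 at 0.48 and Ceacam10 at -0.40, both not called. Ceacam20, which lies near Ceacam16, was read by a pair of probes that disagreed. The brighter probe changed by -0.10 (adjusted p = 0.634), and the dimmer one fell by 0.56 (SE 0.11, adjusted p = 0.0486).

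Among 29 genes of the tectorial membrane and inner ear, 2 rose and none fell, beside 1.58% and 0.689% of all genes, and 4 were higher and 1 lower at an unadjusted p under 0.05 (limma). Col2a1, which encodes the type II collagen of cartilage and of the tectorial membrane, read 8.91, 8.90, 9.03 and 9.11 in 3M replicates 1 to 4 and 9.67, 9.83, 9.71 and 9.57 in 29M replicates 1 to 4. Its groups did not overlap, and it rose by 0.71 (SE 0.09, limma adjusted p = 0.00710). Espn, an actin bundler of hair cell stereocilia, rose by 0.50 (SE 0.11, adjusted p = 0.0561), and its second probe changed by 0.49 (adjusted p = 0.0847), just short of the size threshold. The call of Espn was lost without any one of 3M replicates 1, 2 and 4 and 29M replicates 1, 3 and 4, where its change was 0.45 to 0.52. The main proteins of the tectorial membrane stayed uncalled, with Tecta at 0.33 (adjusted p = 0.186), Tectb at 0.22 (0.391) and Otog at 0.00 (0.990). Tecta and Tectb were each well above background on only 2 of 4 young arrays, so the sizes of their changes are uncertain.

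For Tlx2, the paralogues and DNA-binding partners showed no call among 9 genes (limma), with 1 higher and none lower at an unadjusted p under 0.05. Tlx1 changed by 0.11 (SE 0.15, adjusted p = 0.769), and Tlx3 was not well above background on any array. The partners lay between -0.17 for Meis2 and 0.25 for Meis1. Of 25 genes of neural crest and enteric neurons, none was called higher and 1 lower (limma), beside 1.58% and 0.689% of all genes. At an unadjusted p under 0.05, 2 were higher and 3 lower. The single call was Edn3, the ligand of the endothelin receptor Ednrb, which fell by 0.86 (SE 0.19, adjusted p = 0.0687). This call was lost without any one of 3M replicates 2 and 4 and 29M replicates 1, 2 and 4, with changes of -0.93 to -0.68. A second probe of Ntrk3, a neurotrophin receptor, fell by 0.70 (adjusted p = 0.0663), while the brighter probe changed by -0.05. Hand1 and Hand2, transcription factors of neural crest derivatives, were not well above background on all arrays of either age.

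BMP signalling held the largest change among the relatives. Of 25 genes, 2 rose and 1 fell (limma), beside 1.58% and 0.689% of all genes. All 25 were well above background on all arrays of at least 1 age. Fst, which encodes the BMP and activin antagonist follistatin, read 9.71, 9.49, 9.69 and 9.08 in 3M replicates 1 to 4 and 8.48, 8.51, 8.34 and 7.98 in 29M replicates 1 to 4. The groups did not overlap, and it fell by 1.17 (SE 0.17, limma adjusted p = 0.0129). Bmp7, a ligand, rose by 0.74 (SE 0.14, adjusted p = 0.0432), and its call was lost without any one of 3M replicate 2 and 29M replicates 1 and 2, where the change was 0.69 to 0.75. Smad6, an intracellular inhibitor of the pathway, rose by 0.55 (SE 0.12, adjusted p = 0.0604), and its call was lost without any one of 3M replicates 2 and 3 and 29M replicates 1, 2, 3 and 4, where the change was 0.46 to 0.60. The target genes Id1, Id2 and Id3 changed by 0.43, 0.40 and 0.29, without a call. The median of the list was 0.12, with 8 genes higher and 1 lower at an unadjusted p under 0.05, beside 9.44% and 7.65% of all genes. With the slide as a fixed block the calls of Smad6, Edn3 and Espn were lost, at adjusted p of 0.122, 0.137 and 0.111, and that of Bmp7 was lost narrowly. With the signal scaled to the 75th percentile the calls of Bmp7, Smad6, Edn3 and Espn were lost, at adjusted p of 0.108, 0.164, 0.144 and 0.117.

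**Figure D4:**
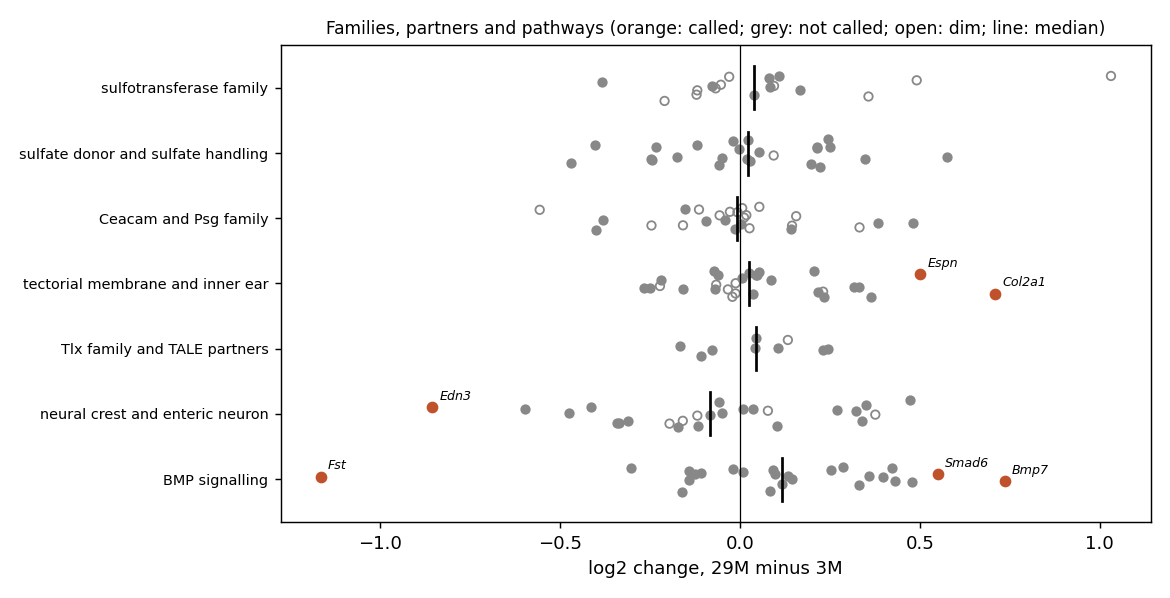
Log2 change between 3M and 29M (horizontal axis) of each measured gene in the 7 lists of families, partners and pathways (vertical axis), with called genes in orange, genes not called in grey, genes that were not well above background on all arrays of an age as open circles, and the list median as a line. The 6 called genes run from -1.17 for Fst to 0.74 for Bmp7. The open circle farthest to the right is Sult1c1, which was well above background on no young array and only 1 old array.

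The chromosomal neighbours were taken as the 10 genes with a probe on each side of each gene, in the order of the GRCm38.p6 gene table. Of these 60 genes, 3 (5%) were called higher and none lower (limma), beside 1.58% and 0.689% of all genes. At an unadjusted p under 0.05, 9 (15%) were higher and 6 (10%) lower, beside 9.44% and 7.65% of all genes. Their median change was 0.00. Each of the 3 genes had 1 called neighbour.

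The gene beside Ceacam16, Bcl3, rose most. It encodes an atypical member of the IkappaB family that acts with NF-kappaB in the nucleus. Bcl3 read 9.98, 8.88, 9.29 and 8.53 in 3M replicates 1 to 4 and 11.16, 11.48, 10.83 and 10.45 in 29M replicates 1 to 4. It rose by 1.81 (SE 0.31, limma adjusted p = 0.0273) with no overlap of the ages. Its sample order was not that of Ceacam16, since 29M replicate 2 was the highest old sample for Bcl3 and the lowest for Ceacam16, and 3M replicate 4 was the lowest young sample for Bcl3 and the highest for Ceacam16. Within slides 1, 2 and 3 Bcl3 differed by 0.66, 2.61 and 2.25. On the other side of Ceacam16, Ceacam19 was not well above background on any array. Apoe and Apoc1, apolipoprotein genes a few places away, changed by 0.15 (adjusted p = 0.408) and 0.75 (adjusted p = 0.126).

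Beside Sult1c2, the lysine acetyltransferase gene Kat2b lay at the second place and rose by 0.63 (SE 0.11, limma adjusted p = 0.0299). It read 10.5, 10.6, 10.5 and 10.9 in 3M replicates 1 to 4 and 11.3, 11.2, 11.1 and 11.3 in 29M replicates 1 to 4, without overlap, and its call was lost without 29M replicate 1 (0.62, adjusted p = 0.104). Sgo1, between Kat2b and Sult1c2, changed by -0.36 (adjusted p = 0.178). The nearest neighbours of Tlx2, Dqx1 and Pcgf1, changed by 0.09 and 0.06 (adjusted p = 0.647 and 0.799). Hk2, a hexokinase gene at the eighth place from Tlx2, rose by 0.53 (SE 0.12, adjusted p = 0.0708), and its call was lost without any one of 3M replicates 2, 3 and 4 and 29M replicates 1, 2 and 4, where the change was 0.42 to 0.57, and with the signal scaled to the 75th percentile (adjusted p = 0.133). The homeobox gene Lbx2, at the second place from Tlx2, changed by 0.27 (adjusted p = 0.240).

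**Figure D5:**
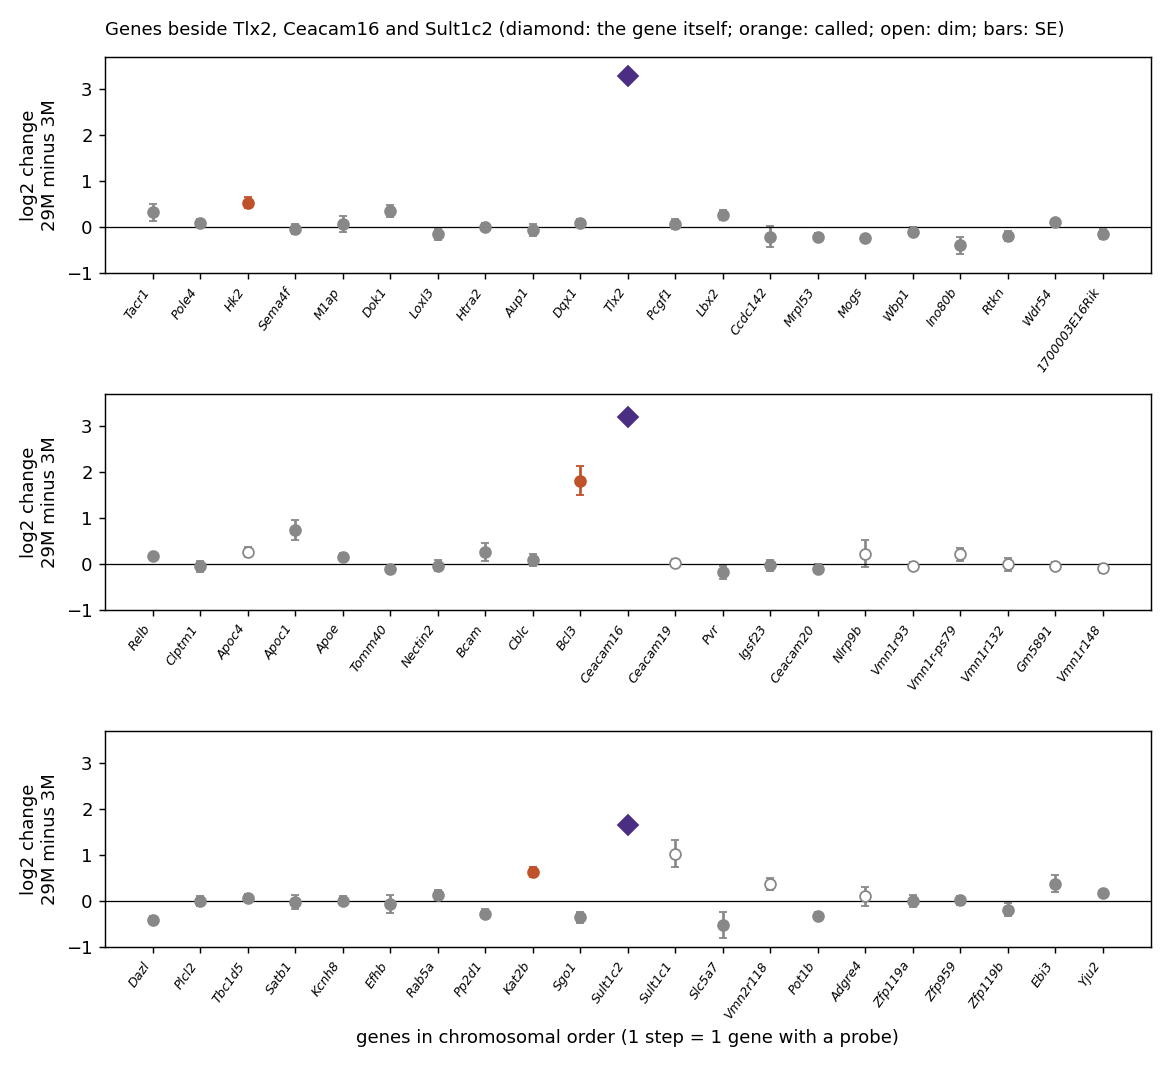
Log2 change between 3M and 29M with its standard error (vertical axis) for the 10 genes on each side of Tlx2, Ceacam16 and Sult1c2 in chromosomal order (horizontal axis), with the gene itself as a diamond, called neighbours in orange, and genes that were not well above background on all arrays of an age as open circles. Bcl3 beside Ceacam16, at 1.81, stands above all other neighbours, and most genes lie close to 0.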

How the data were processed

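RNA of 4 hippocampal samples of 3M and 4 of 29M mice was labelled and hybridised to 1-colour Agilent arrays. The authors deposited scanner intensities (linear, without scaling across arrays), which per the file headers came from Feature Extraction 10.7.3.1. A table of the whole series held mean local background intensities, in 7 of 8 columns those of another sample's array (tolerance 0.001), and was not used. Groups came from the sample titles. The authors' methods name variance stabilising normalization, limma and the thresholds used here. Control and outlier spots (127 to 190 per array) were left out, median spot intensities were put on a generalized log2 scale with an own implementation of that normalization (quantile 0.9, 7 iterations), and spots of a probe were averaged. On that scale changes of dim probes are understated. Limma 3.58.1 (R 4.3.3) was fitted to 39408 probes with at least 3 usable arrays per age, and a probe was called at a Benjamini-Hochberg adjusted p under 0.1 over all probes and a log2 change of at least 0.5. On simulated data with 200 changed probes of 39429, 100% were recovered and 10.7% of calls were false. Only probes brighter than the median were changed there, by more than most list genes and neighbours changed here. The share recovered therefore does not hold for smaller changes or dim probes. Noise there was drawn alike and independently for all probes, with no sample that stood apart. The share of false calls thus does not carry over to the calls made here.

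Accessions of 66.1% of probes matched a RefSeq gene (GRCm38.p6). The arrays were designed on another build, so array coordinates are not given. Of several probes of a gene, the one of highest mean level was used. Not well above background means that the scanner software did not mark the spot as above its local background. The bound of Cdkn2a used the lowest normalized level well above background on each array. Slides were read from the array barcodes. Spot errors given by the software were 10% to 25.8% of the processed signal for Tlx2, 10% to 15.6% for Ceacam16 and 10% to 10.1% for Sult1c2, and the number of arrays limits the precision. The genes and all lists were chosen with earlier results of these data known. Named genes were the 3 genes, called members of the lists and called neighbours, up to 4 further members of a list with the largest change, the 5 genes nearest in pattern under each measure and the genes next in the order of changes. Members of lists named for their role, the second probes and the nearest uncalled neighbours were added after their values had been seen. Alternatives were other normalizations, outlier spots kept, slide or replicate number as a block, single slides, an adjusted p under 0.05, each sample left out and, added after seeing the data, the choroid plexus score as a covariate.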

Additional observations from a re-analysis of the deposited data

Results flagged for a closer look

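Samples far from the others of their age were sought with Dixon's ratio, the gap of the outermost sample to its neighbour over the range of the group, in 38 groups of 4 samples. It was beyond the limit in 3, where chance gives about 1.9. Tlx2 in 29M had a ratio of 0.852, since replicate 2 read 8.66 and the other old samples 9.71 to 9.89. Hk2 in 3M had a ratio of 0.968, since replicate 4 read 9.55 and the other young samples 9.72 to 9.73. The mean score of the Tlx paralogues and TALE partners in 3M had a ratio of 0.863, since replicate 1 stood at -0.18 and the other young samples between 0.01 and 0.04.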

How the results depend on the processing

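No single gene changed direction under the alternatives run. The difference of Tlx2 moved beyond its SD of 0.54 with the processed signal scaled to the 75th percentile (4.13), with normexp and quantile normalization (2.73) and within slide 2 (2.66). That of Ceacam16 moved within slides 2 (2.30) and 3 (3.95), and that of Sult1c2 within slide 2 (0.89). With each sample left out in turn, the differences were 3.07 to 3.59, 2.78 to 3.45 and 1.39 to 1.83 in that order. Over all probes, 491 higher and 319 lower calls became 308 and 179 at an adjusted p under 0.05, and 268 to 844 and 131 to 621 with a sample left out. Of the families and pathways, 4 higher and 2 lower calls became 1 and 1 with the 75th percentile or slide as a fixed block, 2 and 1 at an adjusted p under 0.05, and 1 to 3 and 1 to 6 with a sample left out, where lower calls outnumbered higher ones without 3M replicate 1 (3 and 6) and without 29M replicate 3 (2 and 3). The 3 higher calls among neighbours were 1 to 4 with a sample left out, and there were 0 lower calls in each case. Bcl3, Col2a1 and Fst kept their calls in all 18 alternatives. The cause of these shifts was not tested.

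Replicate numbers did not pair the samples. Same-numbered samples correlated in their deviations at -0.244, 0.208, -0.231 and 0.0715, and only replicate 4 was nearest to its own number. With the replicate number as a block, 266 probes were higher and 145 lower, 2 genes of the families were higher and 1 lower, 2 neighbours were higher and 0 lower, and the differences of Tlx2 (3.29), Ceacam16 (3.20) and Sult1c2 (1.65) were unchanged by construction. The array signal limits Tlx2 most, since it was near background in 3M.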
